A study of Mus musculus with 4 samples.

Results

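Chemokines are small secreted proteins that guide leukocytes along a gradient, and each acts through G protein-coupled receptors on the cells it attracts. In liver they are made by Kupffer cells, endothelial cells, stellate cells and stressed hepatocytes, and the pair of Ccl2 and its receptor Ccr2 is known for bringing monocytes from the blood into the organ. The 9 genes described here are that receptor and 8 ligands: the CC chemokines Ccl2, Ccl4, Ccl5, Ccl6 and Ccl9, in which the first conserved cysteines are adjacent, and the CXC chemokines Cxcl1, Cxcl9 and Cxcl10, in which another residue separates them. They were chosen by name, and every probe set whose only gene symbol in the platform annotation was a member was taken. That gave 17 of 45037 probe sets, and no probe set that the annotation assigns to several genes named a member. At the level of genes it gave 9 of 18193.

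RNA came from the liver of male mice and was hybridised to Affymetrix arrays, with 1 array per group. The groups were LASS2-/- on a high-fat diet (HFD), WT on HFD, LASS2-/- on chow and WT on chow. Per the labels, the HFD supplied 60% and the chow 10% of calories as fat, and feeding of either started when the mice were 3 weeks old. Neither the age at sampling nor how the LASS2 allele was made is given in the labels, nor if several animals were pooled for an array. LASS2 is the older name of Cers2, the synthase of very-long-chain ceramides in liver. The groups allow genotype to be compared on each diet and diet to be compared in each genotype.

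Cers2 itself did not separate the genotype labels. The LASS2-/- HFD array read 12.32 log2 and the WT HFD array 12.25, and the LASS2-/- chow array read 12.32 and the WT chow array 12.46. Which part of the transcript its probe set reads was not determined, so a probe set outside a deleted part would check nothing, and every genotype direction below is that of the arrays as labelled. The 7 measured hepatocyte markers were bright on every array, with Alb, which encodes albumin, between 15.02 and 15.27. Values are log2 of the MAS5 signal. A floor was set at each array's median, between 6.17 and 6.28, and a ratio against a signal under it is given as a bound. The middle of the distribution was nearly equal on the arrays, with trimmed means between 495.8 and 496.0 on the linear scale. Without replicates, no single ratio has an error between animals, and precision is limited by how few arrays there are.

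Ccl5 and Cxcl9 were the members that rose with the LASS2-/- label, and Cxcl1 and Ccl6 were those that rose with HFD. For Ccr2, Cxcl10 and Ccl2 neither effect passed. Like the members just named, they were highest on the array labelled LASS2-/- HFD, and Ccl2 had to be, having entered only through that array. Ccl4 and Ccl9 varied least. The tests were made with limma in 1 additive model of genotype and diet over the 4 arrays, with Benjamini-Hochberg adjustment over all 12493 genes that reached the floor on at least 1 array. This model takes as its error how far the genotype effect differs between the diets and borrows most of its variance from genes of like signal, so its standard errors are not the spread of the single gene between animals.

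**Figure D1:**
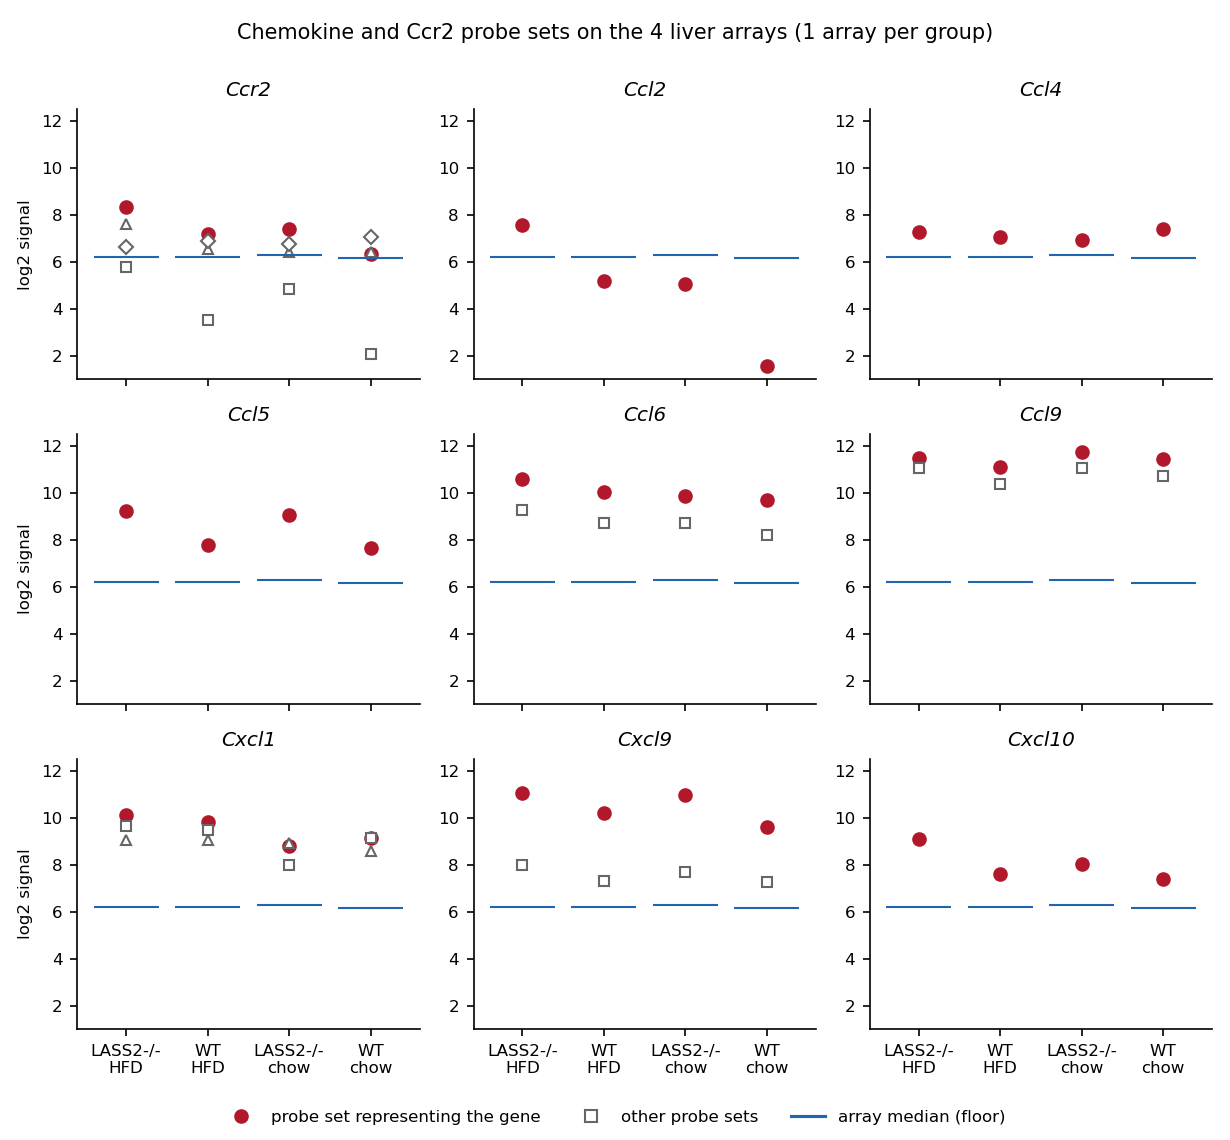
Log2 signal (vertical axis) of the 17 probe sets of the 9 genes on each of the 4 arrays (horizontal axis); red circles mark the probe set that represents the gene, grey open symbols the gene's other probe sets, and blue lines each array's median. Ccl5 lies between 9.03 and 9.21 on the arrays labelled LASS2-/- and between 7.63 and 7.76 on those labelled WT, while Ccl2 is above the blue line only on the array labelled LASS2-/- HFD.

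Ccr2 is the receptor that lets inflammatory monocytes leave the bone marrow and enter tissue. The probe set that represents it showed a signal of 8.32 log2 on the array labelled LASS2-/- HFD and 7.18 on that labelled WT HFD. On chow it had 7.39 on the array labelled LASS2-/- and 6.34 on that labelled WT. Signals thus stood in the order LASS2-/- HFD, LASS2-/- chow, WT HFD and WT chow, and the middle pair differed least. The genotype ratio was 2.20-fold on HFD and 2.08-fold on chow, and the diet ratio was 1.90-fold in LASS2-/- and 1.80-fold in WT. In limma the mean genotype effect was 1.10 ± 0.29 log2 (SE, adjusted p = 0.128) and the mean diet effect 0.88 ± 0.29 (adjusted p = 0.0728), so neither passed.

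The other Ccr2 probe sets did not all show that order. Probe set 1421188_at had 7.61 on the array labelled LASS2-/- HFD and 6.54 on that labelled WT HFD, but 6.40 and 6.42 on the arrays labelled LASS2-/- chow and WT chow. Probe set 1460067_at ran slightly the other way, with 6.64 on the array labelled LASS2-/- HFD, 6.87 on WT HFD, 6.76 on LASS2-/- chow and 7.04 on WT chow. The last, 1421187_at, lay under the floor on all 4 arrays and has no ratio. With the mean of the probe sets that reached the floor, the mean genotype effect of Ccr2 was 0.46 log2 (adjusted p = 0.746), and over all alternatives its adjusted p ranged from 0.128 to 0.746.

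Ccl2, monocyte chemoattractant protein 1, is the main ligand of Ccr2. Its single probe set showed a signal of 7.58 log2 on the array labelled LASS2-/- HFD and 5.20 on that labelled WT HFD, and 5.07 and 1.58 on the arrays labelled LASS2-/- chow and WT chow. Only the first of these was above the floor, so the gene entered the comparisons through the array on which it was highest and had to differ. Signal on the array labelled LASS2-/- HFD was at least 2.61-fold that on WT HFD and at least 2.46-fold that on LASS2-/- chow. No ratio can be given between the chow arrays or between the WT arrays, since both signals were under the floor. In limma, which uses the signals without a floor, the genotype effect had adjusted p = 0.485 and the diet effect adjusted p = 0.188, with a standard error of 1.37 log2.

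Ccl5, known as RANTES, attracts T cells, monocytes and eosinophils. It showed a signal of 9.21 log2 on the array labelled LASS2-/- HFD and 7.76 on that labelled WT HFD. On chow it had 9.03 on the array labelled LASS2-/- and 7.63 on that labelled WT. The LASS2-/- arrays stood together above the WT arrays, and within a genotype the diets lay close. Ccl5 rose with the LASS2-/- label by 1.42 ± 0.19 log2 (limma, adjusted p = 0.00267), in 2 of 2 diets. The diet effect was 0.16 ± 0.19 (adjusted p = 0.686). The genotype call held under 8 of 9 alternatives, and the exception was the fit without a trend of variance in signal, with an adjusted p of 0.742 (range over the alternatives 0.000498 to 0.742). The single probe set of Ccl5 kept the same signals except with quantile normalization and with arrays shifted to equal medians.

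Ccl4, known as MIP-1 beta, is made by activated macrophages and lymphocytes. It showed a signal of 7.28 log2 on the array labelled LASS2-/- HFD, 7.06 on WT HFD, 6.94 on LASS2-/- chow and 7.38 on WT chow. The 4 arrays spanned 0.44 log2 and followed neither genotype nor diet. The mean genotype effect was -0.11 ± 0.33 and the mean diet effect 0.01 ± 0.33 log2, with adjusted p of 0.958 and 0.991 in limma.

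Ccl6 and Ccl9 are ligands of Ccr1 that are known from rodents and are made by myeloid cells. The probe set representing Ccl6 showed a signal of 10.58 log2 on the array labelled LASS2-/- HFD and 10.03 on WT HFD, and 9.86 on LASS2-/- chow and 9.69 on WT chow. Both HFD arrays were above both chow arrays. Ccl6 rose with HFD by 0.53 ± 0.14 log2 (limma, adjusted p = 0.0248), and its genotype effect was 0.36 ± 0.14 (adjusted p = 0.361). Its other probe set had 9.27 and 8.72 on the LASS2-/- HFD and WT HFD arrays, and 8.72 and 8.21 on the LASS2-/- chow and WT chow arrays. There the WT HFD and LASS2-/- chow signals were nearly equal. Fitted in limma with each probe set as its own feature, that other probe set passed for neither effect. Its diet effect was 0.53 ± 0.17 log2 (adjusted p = 0.0805) and its genotype effect 0.53 ± 0.17 (adjusted p = 0.311). The diet call of Ccl6 did not hold with quantile normalization (adjusted p = 0.0553), with arrays shifted to equal medians (0.0741) or without the trend (0.361), and its adjusted p ranged from 0.0139 to 0.361 over the alternatives.

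Ccl9 was the member with a negative mean diet effect. The probe set representing it had 11.46 on the array labelled LASS2-/- HFD and 11.10 on WT HFD, and 11.72 on LASS2-/- chow and 11.41 on WT chow. On each diet the LASS2-/- array was the higher, and in each genotype the HFD array was the lower. The genotype effect was 0.34 ± 0.10 log2 (adjusted p = 0.203) and the diet effect -0.28 ± 0.10 log2 (adjusted p = 0.102), so neither passed in limma. The second Ccl9 probe set had 11.07 on LASS2-/- HFD, 10.38 on WT HFD, 11.05 on LASS2-/- chow and 10.71 on WT chow, with a diet effect of -0.16 log2. In that probe set the arrays labelled LASS2-/- differed by 0.01 log2 between diets.

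Cxcl1, known as KC, attracts neutrophils through Cxcr2 and is induced by NF-kB. The probe set representing it, whose name marks it as shared between transcripts, showed a signal of 10.10 log2 on the array labelled LASS2-/- HFD and 9.80 on WT HFD. On chow it had 8.77 on the array labelled LASS2-/- and 9.13 on that labelled WT. Both HFD arrays were above both chow arrays, while the genotype order turned over between diets. Cxcl1 rose with HFD by 0.997 ± 0.170 log2 (limma, adjusted p = 0.00153), with ratios of 2.51-fold in LASS2-/- and 1.59-fold in WT. The genotype effect was -0.03 ± 0.17 (adjusted p = 0.981).

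The 3 Cxcl1 probe sets agreed on the diet direction and disagreed on genotype on chow. The probe set that is not marked as shared had 9.65 on the array labelled LASS2-/- HFD, 9.46 on WT HFD, 7.97 on LASS2-/- chow and 9.13 on WT chow, with the LASS2-/- chow array set apart as the lowest. The one marked as cross-hybridising had 9.06 on LASS2-/- HFD, 9.05 on WT HFD, 8.94 on LASS2-/- chow and 8.59 on WT chow, with WT chow the lowest. The log2 genotype ratio on chow was therefore -1.15 in the unmarked probe set and 0.35 in the cross-hybridising one. Fitted with each probe set as its own feature, the diet effect had adjusted p = 0.0298 in the unmarked probe set and 0.369 in the cross-hybridising one. For the gene, the diet call held under 8 of 9 alternatives, with adjusted p from 0.000234 to 0.336, and did not hold without the trend.

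Cxcl9 and Cxcl10 bind Cxcr3 on activated T cells and NK cells and are classical targets of interferon gamma. Cxcl9 showed a signal of 11.05 log2 on the array labelled LASS2-/- HFD and 10.20 on that labelled WT HFD. On chow it had 10.97 on the array labelled LASS2-/- and 9.60 on that labelled WT. Both LASS2-/- arrays were above both WT arrays and lay 0.07 log2 apart. Cxcl9 rose with the LASS2-/- label by 1.11 ± 0.14 log2 (limma, adjusted p = 0.0026), in 2 of 2 diets, with ratios of 1.80-fold on HFD and 2.58-fold on chow. The diet effect was 0.34 ± 0.14 (adjusted p = 0.151). Its dimmer probe set showed smaller genotype ratios, with 7.97 on LASS2-/- HFD, 7.32 on WT HFD, 7.70 on LASS2-/- chow and 7.27 on WT chow, and a genotype effect of 0.54 ± 0.25 (adjusted p = 0.553 with each probe set as its own feature). The Cxcl9 genotype call held under 8 of 9 alternatives, the exception again being the fit without trend (adjusted p = 0.742, range over the alternatives 4.79e-05 to 0.742).

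Cxcl10, known as IP-10, showed a signal of 9.09 log2 on the array labelled LASS2-/- HFD and 7.62 on WT HFD, and 8.04 on LASS2-/- chow and 7.40 on WT chow. The array labelled LASS2-/- HFD stood more than 1 log2 above the other 3. The genotype ratio was 2.78-fold on HFD and 1.56-fold on chow, and the diet ratio was 2.08-fold in LASS2-/- and 1.16-fold in WT. The mean genotype effect was 1.06 ± 0.24 log2 (limma, adjusted p = 0.067) and the diet effect 0.64 ± 0.24 (adjusted p = 0.119). With the floor and filter at the 25th percentile the genotype effect passed (adjusted p = 0.0456), and over the alternatives its adjusted p ranged from 0.0456 to 0.742. Whether the genotype effect differed between diets cannot be tested with 1 array per group.

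The upstream sequences of the 3 CXC members are shown because Cxcl9 passed for genotype, Cxcl1 for diet and Cxcl10 for neither. The mean genotype effects of Cxcl9 and Cxcl10 were of like size, at 1.11 and 1.06 log2. A link between motifs and these effects was not tested. The 250 bases before the annotated start were taken from RefSeq (GRCm38.p6), with a window used for 6 of the 9 genes. Cxcl1 lies on the plus strand at chr5:90890995-90891244, and Cxcl9 at chr5:92328080-92328329 and Cxcl10 at chr5:92348890-92349139 lie on the minus strand. Capitals mark matches, on either strand, to the kB motif, the consensus bound by NF-kB, or to GAAANNGAA, part of the element that interferon regulatory factors bind. Each sequence runs 5′ to 3′ and ends at the base before the start.
Cxcl10: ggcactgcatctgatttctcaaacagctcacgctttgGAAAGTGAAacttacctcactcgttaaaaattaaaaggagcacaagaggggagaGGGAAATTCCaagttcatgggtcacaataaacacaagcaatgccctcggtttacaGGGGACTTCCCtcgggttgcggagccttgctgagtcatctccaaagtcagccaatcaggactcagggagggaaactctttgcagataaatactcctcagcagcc
Cxcl9: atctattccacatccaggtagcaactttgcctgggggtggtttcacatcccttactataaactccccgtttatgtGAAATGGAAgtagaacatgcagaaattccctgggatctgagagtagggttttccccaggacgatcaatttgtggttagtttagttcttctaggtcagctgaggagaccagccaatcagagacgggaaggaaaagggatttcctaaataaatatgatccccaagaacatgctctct
Cxcl1: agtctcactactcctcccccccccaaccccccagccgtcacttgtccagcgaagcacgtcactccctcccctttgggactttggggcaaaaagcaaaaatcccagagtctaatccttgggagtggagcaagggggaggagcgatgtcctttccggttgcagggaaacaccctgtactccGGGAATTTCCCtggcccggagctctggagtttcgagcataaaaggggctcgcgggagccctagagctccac

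The Cxcl10 window held 3 matches to the kB motif, of which 2 overlapped, and 1 match to GAAANNGAA. The Cxcl9 window held 1 match to GAAANNGAA and none to the kB motif, and the Cxcl1 window held 2 overlapping matches to the kB motif and none to GAAANNGAA. Among the other members with a window, Ccl9 had 1 kB match and Ccr2 1 match to GAAANNGAA, and TTCNNNGAA, the core bound by STAT factors, occurred in no member's window. Of 32851 windows of the same length, 7.25% held the kB motif, 7.13% GAAANNGAA and 7.02% TTCNNNGAA. A match is a run of letters and not a measured binding site. In the gene order of the same annotation, Ccl5, Ccl9 and Ccl6 are consecutive protein-coding genes on chromosome 11, followed by Ccl3 and Ccl4, while only Art3 lies between Cxcl9 and Cxcl10 on chromosome 5. In this stretch of chromosome 11, Ccl5 rose with the LASS2-/- label, and Ccl9, Ccl6, Ccl3 and Ccl4 did not pass for genotype.

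Members at least 2-fold apart between genotypes were counted beside the share of all genes beyond the same mark. On HFD, 4 of 9 members (Ccr2, Ccl2, Ccl5 and Cxcl10) were at least 2-fold higher on the array labelled LASS2-/-, against 1.47% of all genes tested, and Ccl2 was among them through the bound described above. On chow there were 3 of 9 (Ccr2, Ccl5 and Cxcl9), against 1.16%. No member was at least 2-fold lower on either diet, where 0.488% of genes on HFD and 0.424% on chow were. With the mean of all probe sets that reached the floor, the chow count was 1 gene, Ccl5, and with probe sets marked as shared left out it was 4, the added gene being Cxcl1 on the lower side. In limma, 2 of 9 members rose and 0 fell with the LASS2-/- label, against 0.56% and 0.352% of all genes, and 6 had an unadjusted p under 0.05, against 10.4% of all genes. Apart from Ccl2, which has no chow ratio, 6 of the members were higher on the LASS2-/- array on both diets, against 26.2%. Over the 8 members at or above the floor on both arrays the median log2 genotype ratio was 0.70 on HFD and 0.48 on chow, beside 0.01 and 0.00 over all genes so measured, and with Ccl2 at its bound the HFD median was 0.85. The genes were chosen with results of these arrays known, so these shares describe them and do not test them.

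**Figure D2:**
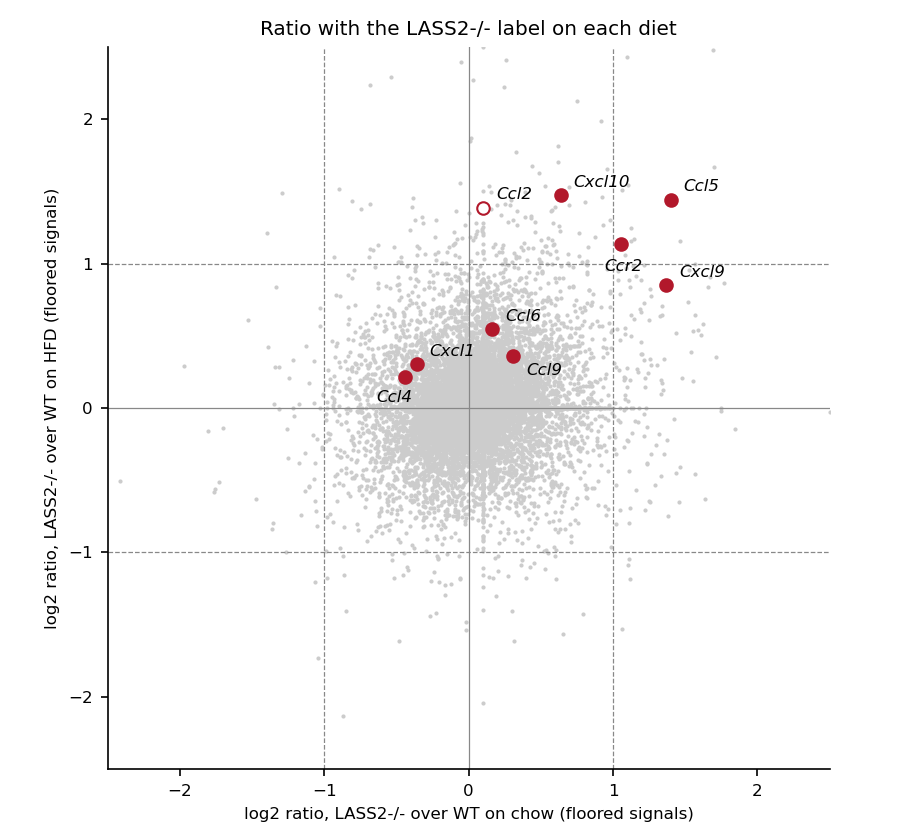
Log2 ratio of the arrays labelled LASS2-/- over WT on chow (horizontal axis) and on HFD (vertical axis), from floored signals, for all 12493 genes (grey; 10 lie outside the axes) and the 9 genes (red; the open symbol is Ccl2, whose ratio is a bound); dashed lines mark 2-fold. Ccl5 and Ccr2 lie beyond 2-fold on both axes, and Cxcl1 and Ccl4 lie left of 0 on chow and above 0 on HFD.

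The log2 diet ratio was numerically higher in LASS2-/- than in WT for 7 of the 8 members at or above the floor on all arrays, against 51.2% of genes so measured. The exception was Cxcl9, at 0.07 in LASS2-/- and 0.60 in WT, but its dimmer probe set had 0.28 in LASS2-/- and 0.05 in WT. The cross-hybridising Cxcl1 probe set ran opposite to the one representing that gene, at 0.12 in LASS2-/- and 0.46 in WT. For Ccl5, Ccl9 and Ccr2 the diet ratios of the genotypes differed by only 0.04, 0.05 and 0.08 log2. In LASS2-/-, 3 of 9 members (Ccl2, Cxcl1 and Cxcl10) were at least 2-fold higher on HFD, against 3.11% of all genes, and in WT 0 of 9 were, against 2.13%. Ccl2 was counted through its bound and has no ratio in WT. No member was at least 2-fold lower on HFD in either genotype, against 1.89% of genes in LASS2-/- and 1.24% in WT. The 2-fold mark is no test of a difference between genotypes, which 1 array per group does not allow. In limma, 2 of 9 members rose with HFD and 0 fell, against 6.26% and 5.04% of all genes, and 7 had an unadjusted p under 0.05, against 23.8%. Ccl2 was among the 7, on signals under the floor on 3 of 4 arrays. Signals were higher on HFD in both genotypes for 6 members, against 33.1% of genes. The median log2 diet ratio of the 8 members measured on both arrays was 0.53 in LASS2-/- and 0.28 in WT, beside 0.02 in each over all genes so measured, and with Ccl2 at its bound it was 0.72 in LASS2-/-. The genotype and diet ratios share arrays: the array labelled LASS2-/- HFD enters both the HFD genotype ratio and the LASS2-/- diet ratio, and it was the highest of the 4 for 7 of 9 members and for 27.5% of all genes. Ccl2, among the 7, entered only through that array and so had to be highest there. Ccl9 was highest on LASS2-/- chow and Ccl4 on WT chow.

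**Figure D3:**
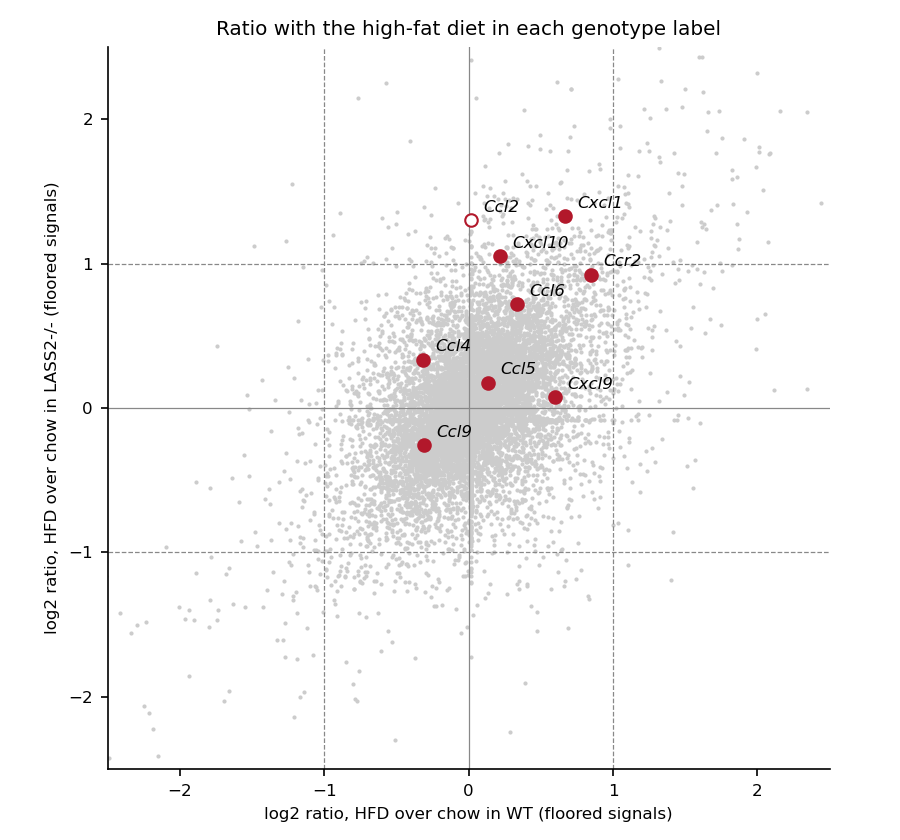
Log2 ratio of HFD over chow in WT (horizontal axis) and in LASS2-/- (vertical axis), from floored signals, for all 12493 genes (grey; 39 lie outside the axes) and the 9 genes (red; the open symbol is Ccl2, whose ratio is a bound); dashed lines mark 2-fold. Cxcl1, Ccl2 and Cxcl10 lie beyond 2-fold in LASS2-/- and none of the 9 does in WT.

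**Figure D4:**
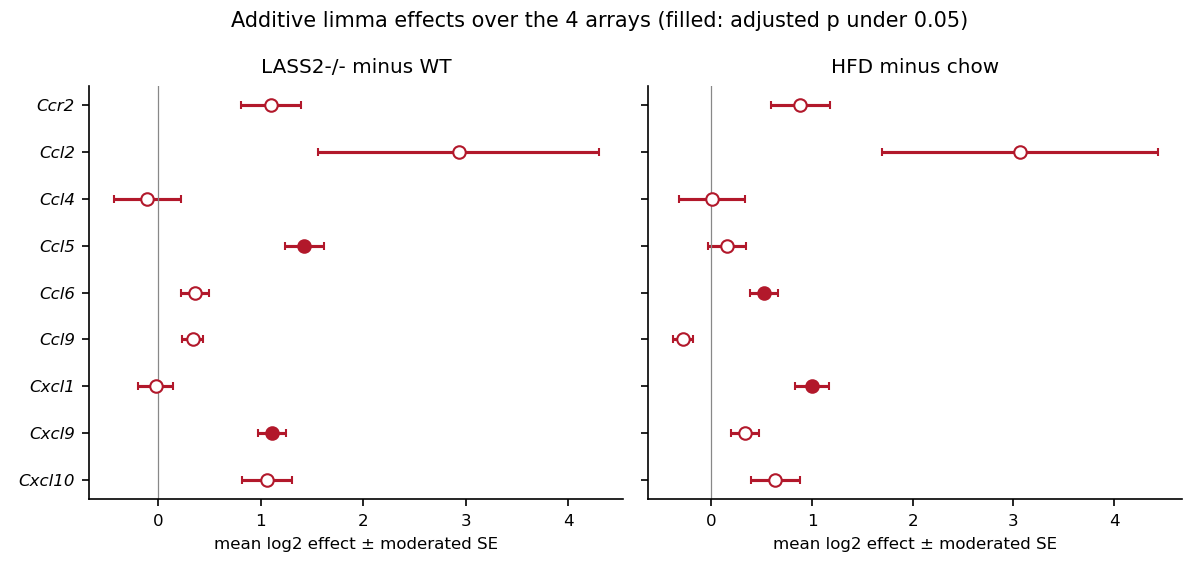
Mean log2 effect of the LASS2-/- label (left) and of HFD (right) from the additive limma model, with bars for the moderated standard error and filled symbols where adjusted p was under 0.05, for the 9 genes in rows. Ccl5 and Cxcl9 are filled on the left, Ccl6 and Cxcl1 on the right, and the bars of Ccl2 are the widest at 1.37 log2.

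The rest of the chemokine system was mostly dim. Of 16 other CC ligands, 13 were on the array, 6 entered and 7 were under the floor on all arrays, and 0 changed with genotype or diet in limma, with 0 at an unadjusted p under 0.05 for either. Only 3 of them were at or above the floor on both HFD arrays and 2 on both chow arrays, too few for a median. Ccl8, another ligand of Ccr2 in human, had 6.86 on LASS2-/- HFD, 6.59 on WT HFD, 7.27 on LASS2-/- chow and 6.06 on WT chow. Of 14 other CXC, CX3C and XC ligands, 9 entered and 0 changed with genotype, with 3 at an unadjusted p under 0.05, while 1 rose with HFD. That gene was Pf4, platelet factor 4, which rose by 1.52 ± 0.21 log2 (adjusted p = 0.000277). The median log2 genotype ratio was 0.81 over the 6 measured on both HFD arrays and 0.18 over the 5 measured on both chow arrays, and 0.67 and 0.22 with bounded genes at their bound. Cxcl13, which attracts B cells, had 9.43 on LASS2-/- HFD, 7.58 on WT HFD, 8.57 on LASS2-/- chow and 8.56 on WT chow, so the HFD arrays lay on either side of the chow arrays. Cxcl11, the remaining Cxcr3 ligand, had 8.09 on LASS2-/- HFD, 7.10 on WT HFD, 7.29 on LASS2-/- chow and 7.02 on WT chow.

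Many receptors other than Ccr2 were dim. Of 23, 21 were on the array, 10 entered and 11 were under the floor everywhere, among them Cxcr2, the receptor of Cxcl1, and Ccr3, the main receptor of eosinophils. Not all were dimmer than Ccr2: Ackr2 lay between 7.19 and 8.47 log2, and the probe set representing Ccr2 between 6.34 and 8.32. Ackr4 was also above the floor on all arrays. None of the 10 changed with genotype in limma, with 0 at an unadjusted p under 0.05. Their median log2 ratio was 0.24 over the 7 measured on both HFD arrays (0.14 with bounded genes at their bound) and -0.36 over the 6 measured on both chow arrays. Only 1 rose with HFD and 0 fell: Ackr2, an atypical receptor that takes up CC chemokines without signalling, rose by 0.93 ± 0.27 log2 (adjusted p = 0.0409). Cxcr3, the receptor of Cxcl9 and Cxcl10, had 5.35 on LASS2-/- HFD, 6.54 on WT HFD, 6.28 on LASS2-/- chow and 6.58 on WT chow, so it was under the floor on the first array. Among 15 inducing cytokines and their transcription factors, Tnf, Il6 and Ifng were under the floor on all 4 arrays. Of the 10 that entered, 0 changed with genotype in limma, with 1 at an unadjusted p under 0.05, which was Irf7, a regulator of type I interferon genes. The median log2 genotype ratio over the 8 measured on both arrays was 0.20 on HFD and 0.07 on chow, and 0.13 and 0.08 with bounded genes at their bound. Irf7 had 9.74 on LASS2-/- HFD, 8.51 on WT HFD, 9.25 on LASS2-/- chow and 9.20 on WT chow. Il1b, the inflammatory cytokine interleukin 1 beta, fell with HFD by 1.02 on the log2 scale (SE 0.23, adjusted p = 0.00905), the opposite direction to Cxcl1.

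Leukocyte markers were read on the same arrays, since in whole liver a larger number of cells and more RNA per cell cannot be told apart. All 12 macrophage and Kupffer cell markers entered, 2 rose with the LASS2-/- label (Marco by 2.48 ± 0.24 and Mpeg1 by 0.83 ± 0.11 log2, adjusted p = 0.000391 and 0.00267 in limma) and 10 had an unadjusted p under 0.05. Their median log2 genotype ratio was 0.54 on HFD and 0.27 on chow. Their summed linear signal was 35176.5 on LASS2-/- HFD and 23823.9 on WT HFD, and 30499.3 on LASS2-/- chow and 24238.5 on WT chow, the same order of genotypes as for Ccl5 and Cxcl9. Of 8 inflammatory monocyte markers, 5 entered and 0 passed, with 1 at an unadjusted p under 0.05 for genotype and 1 for diet. Their sum was 2687.4 on LASS2-/- HFD and 1634.1 on WT HFD, and 1788.7 on LASS2-/- chow and 1394.3 on WT chow, which is the order of Ccr2. Only 2, Plac8 and Fcgr1, were at or above the floor on every array. Plac8, the brighter, had 11.002 on LASS2-/- HFD, 10.35 on WT HFD, 10.51 on LASS2-/- chow and 10.17 on WT chow. The linear sum follows mainly this gene. Fcgr1 had 7.91 on LASS2-/- HFD, 7.48 on WT HFD, 7.29 on LASS2-/- chow and 7.35 on WT chow. It did not keep the order of Ccr2, and the remaining markers that entered kept it with some signals under the floor. Itgam was under the floor everywhere. The part of these cells in the chemokine results was not tested.

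Many markers of T and NK cells, which Cxcl9 and Cxcl10 attract, were under the floor. Of 9 T cell markers, 3 entered and 5, including Cd3e and Cd4, were under the floor on all arrays, with sums of 152.3 on LASS2-/- HFD, 229.8 on WT HFD, 321.7 on LASS2-/- chow and 238.3 on WT chow. Of 8 NK and cytotoxic cell markers, 4 entered, with sums of 359.7 on LASS2-/- HFD, 323.3 on WT HFD, 523.1 on LASS2-/- chow and 322.4 on WT chow, and Ncr1 was under the floor everywhere. The 4 neutrophil markers that entered summed to 858.5 on LASS2-/- HFD, 642.5 on WT HFD, 620.6 on LASS2-/- chow and 509.0 on WT chow. Of these, S100a8 and S100a9 were higher on the LASS2-/- array on both diets. Csf3r was lower on it on both diets, and Elane was above the floor only on WT chow. The median genotype effect of the 4 was -0.04 log2. For B and plasma cells the 4 markers summed to 2429.7 on LASS2-/- HFD and 6492.0 on WT HFD, and 2497.8 on LASS2-/- chow and 2459.7 on WT chow, which set the WT HFD array apart. That rested on Ighm and Jchain, at 12.41 and 9.73 log2 on WT HFD. Cd79b was highest on LASS2-/- HFD, at 7.04 against 6.73 on WT HFD, and Ms4a1 spanned only 0.42 log2 over the arrays. The 8 endothelial markers summed to 10056.0 on LASS2-/- HFD, 10614.8 on WT HFD, 9704.9 on LASS2-/- chow and 9349.5 on WT chow. In these 5 lists 0 markers passed for genotype, with 3 at an unadjusted p under 0.05, and no entering marker was at exact 0 on any array. With HFD the endothelial cadherin Cdh5 rose by 0.75 ± 0.17 log2 (adjusted p = 0.0125), and of the hepatocyte markers Fgb fell by 0.37 and Cps1 by 0.41 log2 (adjusted p = 0.00299 and 0.00215 in limma). No leukocyte marker passed for diet in limma, where 7 had an unadjusted p under 0.05.

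The genes most like each member were ranked by the root mean square distance between profiles centred on their own mean, over the 4 arrays. With so few points such a distance is a description. Nearest to Ccr2 was Lpl, lipoprotein lipase, at 0.05 log2, with 11.12 on LASS2-/- HFD, 9.87 on WT HFD, 10.22 on LASS2-/- chow and 9.09 on WT chow. Nearest to Cxcl10 were Oas1a, an interferon-induced antiviral enzyme, at 0.07, and Cybb, a subunit of the phagocyte NADPH oxidase, at 0.09. Cxcl9 was closest to Procr, the endothelial protein C receptor, at 0.02, with Procr under the floor on WT chow, and Ccl5 to Akr1c18, a steroid dehydrogenase, at 0.02, although Akr1c18 was above the floor only on the arrays labelled LASS2-/-. Cxcl1 was closest to Hsd17b7, an enzyme of cholesterol synthesis, at 0.06. For Ccl2 the nearest gene, Elovl7, which was under the floor on WT chow, was 0.29 log2 away, the largest nearest distance among the 6 members that spanned at least 1 log2 over the arrays.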

How the data were processed

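Liver RNA of 4 groups was measured on 1 Affymetrix 3' array each. The authors deposited a log2 signal for every probe set on each array, computed with MAS5 per the submitters' processing notes. The sources used here give neither its version nor its scaling target, and detection calls were not used. Nearly equal trimmed means (2% from each tail) led to no further scaling. Names came from the platform annotation, updated by gene number (34741 of 34945 single-symbol probe sets matched, RefSeq GRCm38.p6); probe sets with several symbols (932) or none (9160) were left out. Probe sets reaching the array median on at least 1 array were kept, and the one with the highest mean log2 signal represented a gene.

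Ratios used signals floored at the array median, and medians of ratios left out genes under it on both arrays. Mean effects came from limma 3.58.1 (R 4.3.3) on unfloored log2 values, genotype plus diet, with a trend in signal. It has 1 residual degree of freedom and 12.7 prior degrees of freedom. An adjusted p under 0.05 over all genes passed. The code was tested on simulated data. Figures and tables were made in Python 3.11.15 with pandas 2.3.3, numpy 2.4.6 and matplotlib 3.10.9.

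The members, lists and tests were chosen with earlier results of these data known. All 9 members and Cers2 were named; from other lists, genes with the smallest unadjusted p for genotype or diet, up to 4 each; for members spanning 1 log2, up to 3 nearest profiles. Genes named for being under the floor, and the neighbour Art3, fall outside this.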

Additional observations from a re-analysis of the deposited data

Results flagged for a closer look

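The difference between 2 genotype ratios, or between 2 diet ratios, rests on the 4 single arrays and was not tested. Ccl4 had a log2 genotype ratio of 0.22 on HFD and -0.44 on chow, a difference of 0.65, and because the same 4 values enter, its diet ratio was 0.34 in LASS2-/- and -0.32 in WT with the same difference of 0.65. Cxcl1 had a log2 genotype ratio of 0.30 on HFD and -0.36 on chow, a difference of 0.66. In each case the ratios point in opposite directions. The second Cxcl1 probe set, not marked as shared, had 0.18 on HFD and -1.15 on chow, and the cross-hybridising one had 0.00 on HFD and 0.35 on chow.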

How the results depend on the processing

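The alternatives were quantile normalization, equal medians, a floor and filter at the 25th percentile, the mean of kept probe sets, leaving out probe sets marked as shared, no filter, no trend, robust moderation and, chosen after seeing the data, each probe set as its own feature. Limma passed 2 members for genotype and 0 without trend, where 5 had an unadjusted p under 0.05. It passed 2 members for diet, 1 with quantile normalization, 1 with equal medians and 0 without trend, where 3 had an unadjusted p under 0.05. Without trend 0 of 12493 genes passed for either effect, with 820 and 1783 at an unadjusted p under 0.05 for genotype and diet. Members at least 2-fold apart on chow numbered 3, and 1 with the mean of kept probe sets, where the log2 ratio on chow was 0.25 for Ccr2 and 0.90 for Cxcl9. With equal medians Ccr2 had 0.95 there, and the median over all genes measured on both arrays was -0.10 in place of 0.00 for that ratio and 0.11 in place of 0.02 for the LASS2-/- diet ratio. With the 25th percentile Ccl2 passed for diet (adjusted p = 0.0373, range 0.0373 to 0.322), on signals under the main floor on 3 of 4 arrays. The other 2-fold counts stayed within 1.5 times, no member's called value changed direction, and the cause of these changes was not tested. No paired analysis was possible because each group has 1 array, and leaving out an array leaves limma no residual degree of freedom.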
